A study of Solanum tuberosum with 12 samples.

Results

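Sequences of 24 nt that begin with A and stand at a single place in a list of predicted potato miRNAs were described. A member was an entry of the list whose mature sequence (the small RNA itself) had 24 nt, began with A and occurred in exactly 1 entry. The rule found 68 members among 324 entries, which hold 222 distinct mature sequences. This deposited list holds more entries than the final set of predicted miRNAs that the study reports. Members were not matched to that set, so a member need not belong to it. The list came from 12 small RNA libraries of Solanum tuberosum group Andigena, clone ADG573, a clone that forms tubers under short days (SD) and not under long days (LD). All plants were propagated in vitro, grew for 4 weeks under LD in a glasshouse and were moved to cabinets at 20 °C under SD or LD. The labels put sampling at 8 days for every group, while the study's methods give later days for stolons. The groups were SD leaf, LD leaf, SD swollen stolon and SD stolon, with 3 libraries each, all from this 1 clone. The authors predicted miRNAs from the joined reads, and the list gives each member 1 read number over the 12 libraries. Read numbers by tissue, which the study gives apart from this list, were not used, so levels in leaf and stolon, or under SD and LD, were not analysed here. The list does not give the depth of each library, and no statistical test was made. A single entry in the list does not mean a single copy in the genome, since positions outside the list were not searched.

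In plants, a miRNA is cut from the stem of a folded RNA precursor by a Dicer-like protein, which leaves a duplex of the mature strand and its partner, the star strand. The canonical enzyme for this step is DCL1. Small RNAs of the length described here are mostly made by DCL3, known best from Arabidopsis thaliana, and are typically loaded into Argonautes of the AGO4 group, which favour a 5′ A and guide DNA methylation at repeats and transposons. Hairpins of inverted repeats and short transposons are a known source of small RNAs of this length. Bases 2 to 8 of a small RNA, called the seed, are a stretch where pairing with a target is usually strict.

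Shown here, because they mark both ends of the abundance range, are the 5 most read members and, of those tied at the lowest number, the one that comes first in the alphabet. Sequences run 5′ to 3′ in DNA letters, as deposited, and capitals mark bases 2 to 8.
PotatoMir1000102548: aAAAGAATgacctggtttgacttg
PotatoMir1001311113: aCACTAGTtgatcttattgatgac
PotatoMir1002494475: aTAGGACTttagtttagttaaggt
PotatoMir1002979787: aTGTAGAGaatatgtggtaaccct
PotatoMir1001568104: aCTAATGCcggtaaagactttaac
PotatoMir1001239442: aCAAATAAtctagttcataatgat
None of these 6 shares its seed with any of the other 5. Their positions, in the superscaffolds of the DM potato genome used by the authors, are given with their values. No gene annotation of this build was used.

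The reads of the 68 members were low in number and concentrated in a few sequences. Together they had 3142 reads, which is 0.329% of the 954147 reads of all distinct sequences of the list. A single sequence of another length held 741106 of these reads, and without it the members' share was 1.47% of 213041 reads. The median was 14.5 reads per member (range 2 to 929, lower quartile 4.75, upper quartile 36.5), against 10.5 reads for the 30 single-entry 24 nt sequences with another first base, 9 reads for the 23 distinct 24 nt sequences in several entries and 51 reads for the 101 distinct sequences of other lengths. The order-statistic interval (95%) of the members' median was 9 to 20 reads, and it held the medians of 10.5 and 9 reads but not that of 51 reads. Read intervals, here and elsewhere, cover counting error only, because reads amplified by PCR are not independent molecules.

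PotatoMir1000102548 stood apart with 929 reads (Poisson 95% interval 870 to 991), 29.6% of the reads of all members. It lay at 659896 to 659919 on the minus strand of superscaffold PGSC0003DMB000000243. PotatoMir1001311113 had 313 reads (279 to 350) and lay at 107559 to 107582 on the plus strand of PGSC0003DMB000000022. PotatoMir1002494475 had 214 reads (186 to 245) and lay at 138265 to 138288 on the plus strand of PGSC0003DMB000000661. These 3 intervals do not overlap, so the order of the 3 members is larger than the counting error. PotatoMir1002979787 had 155 reads (132 to 181), from 376697 to 376720 on the plus strand of PGSC0003DMB000000388. PotatoMir1001568104 had 121 reads (100.4 to 145), from 39263 to 39286 on the minus strand of PGSC0003DMB000000726. Their intervals overlap, so their order cannot be told from the reads. These 5 members held 1732 reads (55.1%), the first 10 held 2203 reads (70.1%), and the other 58 shared 939 reads. At the low end, 17 of 68 members (25%, Wilson 95% interval 16.2 to 36.4%) had fewer than 5 reads, the minimum in the study's methods, against 8 of 30 single-entry sequences with another first base and 7 of 23 sequences in several entries. No member had a single read, while 18 of 222 distinct sequences of the list did. PotatoMir1001239442, with 2 reads (0.242 to 7.22), lay at 812161 to 812184 on the minus strand of PGSC0003DMB000000229 and was 1 of 8 members with 2 reads.

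**Figure D1:**
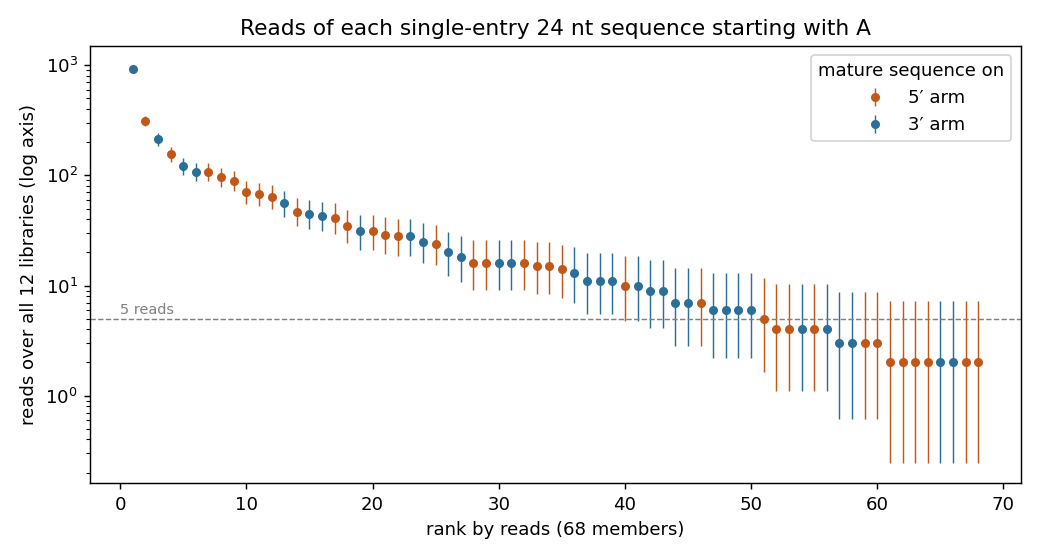
Reads of each of the 68 members over all 12 libraries (log axis) against rank, coloured by the arm of the precursor, with Poisson 95% intervals as bars and a dashed line at 5 reads. The first member, with 929 reads, sits far above the second with 313 reads, and 17 members lie under the line.

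No strong relation of reads to the other properties of the members was seen. Across the 68 members, Spearman's rho between log10 reads and precursor length was -0.11, with minimum free energy per nt 0.04, with G+C of bases 2 to 24 0.02 and with mismatches in the duplex -0.01. These values are a description over sequences that share the same pooled libraries. The 51 members with at least 5 reads had a median precursor of 87 nt, and the 17 with fewer reads one of 122 nt, with overlapping intervals (69 to 108 nt and 82 to 147 nt).

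Both arms of the hairpin gave members in nearly equal numbers. The mature sequence lay at the 3′ end of the precursor in 33 of 68 members (48.5%, 37.1 to 60.2%) and at the 5′ end in 35. The 3′ share was 33.3% among the 30 single-entry 24 nt sequences with another first base (19.2 to 51.2%), 55.7% among the 61 entries of 24 nt sequences in several entries (43.3 to 67.5%) and 48.4% in the rest of the list (124 of 256). The arm read from the direction of pairing in the fold was the same at every member, but this could not differ and is no check. Each mature sequence lies at an end of its precursor, so its pairing with the rest can only run toward the other end. The 33 members of the 3′ arm held 1800 reads, of which 929 belong to PotatoMir1000102548, and the 35 members of the 5′ arm held 1342 reads. The median was 11 reads on the 3′ arm (7 to 20) and 16 reads on the 5′ arm (5 to 31), which overlap. The plus strand of the superscaffold carried 36 of 68 members.

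Precursors ranged from 49 to 226 nt, with a median of 101.5 nt (74 to 118 nt) and a gap in the middle of the upper range. The median was 115.5 nt for single-entry 24 nt sequences with another first base, 112 nt for 24 nt entries of repeated sequences and 81 nt for the 165 entries of other lengths. Under 75 nt lay 26 of 68 members. No member lay between 171 and 204 nt, and 10 members (14.7%, 8.19 to 25%) had precursors over 200 nt, against 4 of 30, 4 of 61 and 1 of 165 entries in the 3 other sets. The authors excised precursors from windows of fixed size, which sets an upper limit to these lengths.

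**Figure D2:**
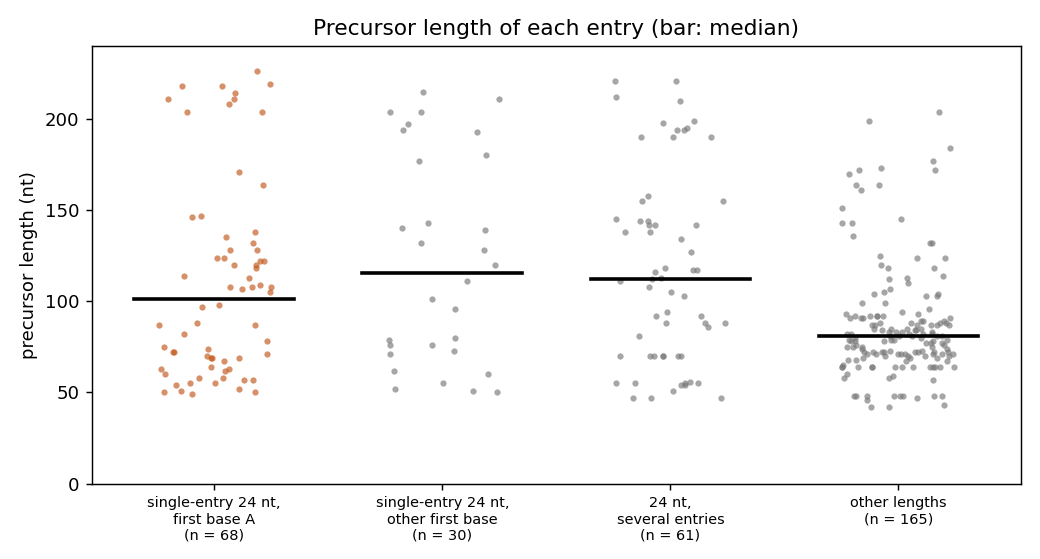
Precursor length in nt of every entry, for the 68 members, the 30 single-entry 24 nt entries with another first base, the 61 entries of 24 nt sequences in several entries and the 165 entries of other lengths, with a bar at the median. Members form a dense lower range and a separate group of 10 above 200 nt.

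The shortest precursors held little besides the mature and the star sequence. PotatoMir1000713200, with 7 reads, had a precursor of 49 nt at 1387001 to 1387049 on the plus strand of PGSC0003DMB000000091. PotatoMir1001488903, with 31 reads, had one of 50 nt at 1426336 to 1426385 on the plus strand of PGSC0003DMB000000078, tied with PotatoMir1003398604 (43 reads), which comes later in the alphabet. PotatoMir1000713200 had 85.7% of its precursor bases paired and PotatoMir1001488903 had 68%. Both are printed with the mature sequence in capitals, because they show how little lies between mature and star sequence.
PotatoMir1000713200: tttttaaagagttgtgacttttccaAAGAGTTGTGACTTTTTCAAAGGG
PotatoMir1001488903: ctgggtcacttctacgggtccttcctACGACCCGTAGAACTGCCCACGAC
In the first, mature and star sequence share 16 nt in the same sense (bases 1 to 16 of the mature sequence and 7 to 22 of the star sequence), so this precursor holds a direct repeat as well as a weak fold of -0.218 kcal/mol per nt. A shared run of at least 12 nt of this kind, searched after the sequence had been seen, occurred in 1 of 68 members, 0 of 30 single-entry sequences with another first base, 1 of 61 entries of repeated 24 nt sequences and 4 of 164 entries of other lengths with a star sequence.

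The longest precursors belonged to PotatoMir1003011238 (226 nt, 108 reads, 818594 to 818819 on the plus strand of PGSC0003DMB000000143) and PotatoMir1003120195 (219 nt, 35 reads, 345338 to 345556 on the minus strand of PGSC0003DMB000000299). All 10 precursors over 200 nt had an overhang of 2 nt at the precursor end and no asymmetric bulge. Their star length of 24 nt follows from these 2 traits. The 156 to 178 nt between mature and star sequence follow from the precursor length. Both traits were common in all 68 members, with the overhang of 2 nt in 58 and no asymmetric bulge in 43. The long precursors of the other sets were not described in this way. The mature sequence lay on the 5′ arm in 7 of the 10. Mismatches in their duplexes ranged from 0 to 6, and 8 of 10 met the duplex criteria described with the duplexes, overhang included. Their reads ranged from 2 to 214, so long precursors occurred among members with few and with many reads.

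Folds were described by the minimum free energy, the energy of the most stable predicted pairing, where a more negative value is a more stable fold. Divided by length, it had a median of -0.383 kcal/mol per nt in the members (-0.434 to -0.345), against -0.404 for single-entry 24 nt sequences with another first base, -0.478 for entries of repeated 24 nt sequences and -0.438 for other lengths. The whole precursors had a median of -38.35 kcal/mol (range -168.3 to -8.4). The median interval of the members held the value of the single-entry sequences with another first base and neither of the others, and the intervals of the members and of the repeated 24 nt sequences (-0.554 to -0.405) overlapped. Of the bases of a precursor, a median of 74.6% were paired, and more than 90% were paired in 3 members.

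**Figure D3:**
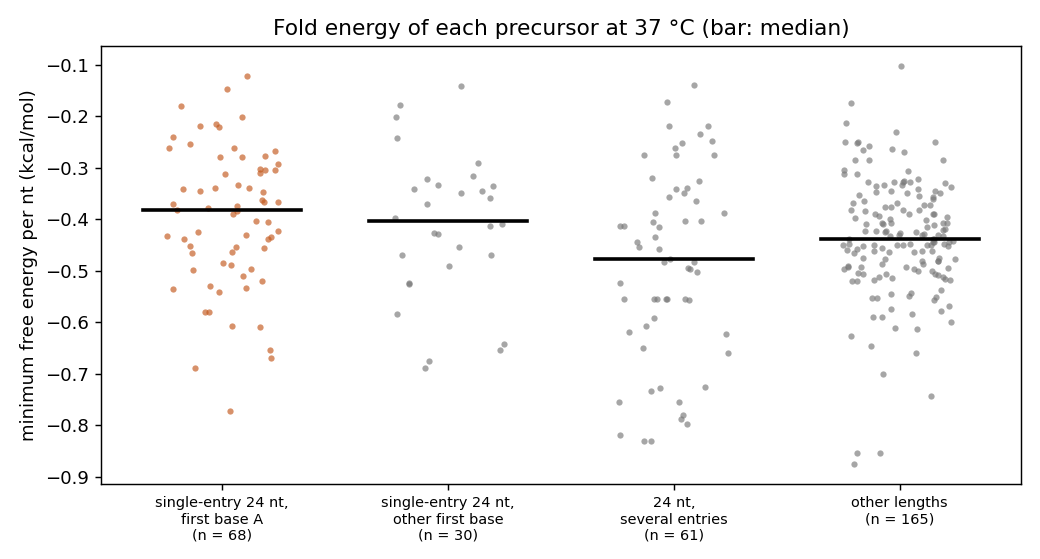
Minimum free energy per nt at 37 °C, in kcal/mol, for every entry of the same 4 sets, with a bar at the median. Members spread from -0.772 to -0.122, and their median of -0.383 lies above the medians of the other 3 sets.

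The most stable folds per nt were those of PotatoMir1002699934 and PotatoMir1001503542, and the least stable those of PotatoMir1001841294 and PotatoMir1002136361. PotatoMir1002699934 (41 reads, 420390 to 420607 on the plus strand of PGSC0003DMB000000395) reached -0.772 kcal/mol per nt over 218 nt, with 93.6% of its bases paired. PotatoMir1001503542 (14 reads, 6815 to 7018 on the minus strand of PGSC0003DMB000001009) reached -0.690 over 204 nt. PotatoMir1001841294 (4 reads, 243357 to 243425 on the minus strand of PGSC0003DMB000000127) had -0.122 over 69 nt, and PotatoMir1002136361 (16 reads, 184062 to 184159 on the minus strand of PGSC0003DMB000000651) had -0.148 over 98 nt. The extremes are printed with the mature sequence in capitals, to set a nearly complete inverted repeat beside a loosely paired stem.
PotatoMir1002699934: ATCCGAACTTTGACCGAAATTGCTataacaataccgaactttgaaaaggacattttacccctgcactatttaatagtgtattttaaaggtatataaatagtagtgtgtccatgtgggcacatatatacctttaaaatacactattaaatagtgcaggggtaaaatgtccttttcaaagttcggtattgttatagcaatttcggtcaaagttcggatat
PotatoMir1001841294: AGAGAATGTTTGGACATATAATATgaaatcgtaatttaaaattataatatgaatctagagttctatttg
The precursors of PotatoMir1002699934 and PotatoMir1001503542 shared a run of 46 nt in the same sense and, since each stem is nearly its own reverse complement, one of 46 nt in the reverse sense. Their mature sequences differed at 19 of 24 bases, so the shared stretch lies inside the hairpins.

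The duplex of each member was read from its fold, with the star sequence cut to leave a 3′ overhang of 2 nt. The study's methods ask for strands from opposite arms, no more than 4 mismatches, and no asymmetric bulges beyond a single one of 1 or 2 nt, and also for 3′ overhangs of 2 nt. Per those methods the criteria came before the minimum of reads, so entries of the list may already have passed them on the authors' folds of wider windows. A criterion missed here is one missed in the new fold of the deposited precursor. Leaving the overhang aside, the criteria were met by 51 of 68 members (75%, 63.6 to 83.8%). The share was 27 of 30 for single-entry 24 nt sequences with another first base (74.4 to 96.5%), 54 of 61 for entries of repeated 24 nt sequences (78.2 to 94.3%) and 136 of 165 for other lengths (75.9 to 87.5%), and all these intervals overlap that of the members. With an overhang of 2 nt at the open end of the precursor also required, which was added after seeing the data, 47 of 68 members met them (57.4 to 78.8%), against 26 of 30, 54 of 61 and 133 of 165 entries. More than 4 mismatches occurred in 9 members (13.2%, 7.12 to 23.3%), against 0 of 30, 3 of 61 and 4 of 165 entries. In the rest of the list as a whole, mostly entries of other lengths, this was 7 of 256 entries (2.73%, 1.33 to 5.54%), an interval that does not reach that of the members. The intervals of the 30 and of the 61 entries of 24 nt do overlap that of the members. More than 1 asymmetric bulge occurred in 6 members and a bulge over 2 nt in 3. A duplex without any mismatch or bulge was found in 5 of 68 members, 2 of 30 single-entry sequences with another first base and 19 of 61 entries of repeated 24 nt sequences.

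PotatoMir1000102548, the member with the most reads, was among those that missed a criterion in the new fold. Its precursor of 88 nt is printed with the mature sequence in capitals, since it carries 29.6% of the reads.
PotatoMir1000102548: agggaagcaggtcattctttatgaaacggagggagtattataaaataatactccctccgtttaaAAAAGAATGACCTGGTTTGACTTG
The fold placed 16 of its 24 mature bases in pairs, with 5 mismatches and no asymmetric bulge, a star sequence of 23 nt and an overhang of 3 nt at the precursor end. The other 4 of the 5 most read members had precursors of 57 nt (PotatoMir1001311113), 208 nt (PotatoMir1002494475), 78 nt (PotatoMir1002979787) and 60 nt (PotatoMir1001568104).

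Star sequences of 24 nt were read in 42 of 68 members (61.8%, 49.9 to 72.4%), shorter ones in 15 and longer ones in 11, against 22 of 30, 52 of 61 and 107 of 165 entries with a star of the same length as the mature sequence in the other sets. Only the overhang at the open end of the precursor is a measurement, since the cut fixed the one at the loop. It was 2 nt in 58 of 68 members (85.3%, 75 to 91.8%), against 244 of 256 other entries (95.3%, 92.0 to 97.3%), and these intervals do not overlap. By set, it was 2 nt in 28 of 30, 60 of 61 and 156 of 165 entries. The interval of the 30 single-entry sequences with another first base overlaps that of the members. Base 1, the A, was paired in 49 of 68 members. On the 3′ arm it was paired in 29 of 33 members (72.7 to 95.2%), against 93 of 124 other entries of that arm (66.7 to 81.8%). On the 5′ arm it was paired in 20 of 35 members (40.9 to 72.0%), against 107 of 132 other entries of that arm (73.5 to 86.8%). These 5′ arm intervals do not overlap, while those of the 3′ arm do. The rule fixed base 1 of the members as A, while 64 of 101 distinct sequences of other lengths began with T. Unlike bases are therefore compared here. The other entries of each arm were not split by set, so a difference from the other 24 nt sets is not shown. A median of 2 G:U pairs per duplex (range 0 to 7) compares with a median of 1 in the rest of the list.

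**Figure D4:**
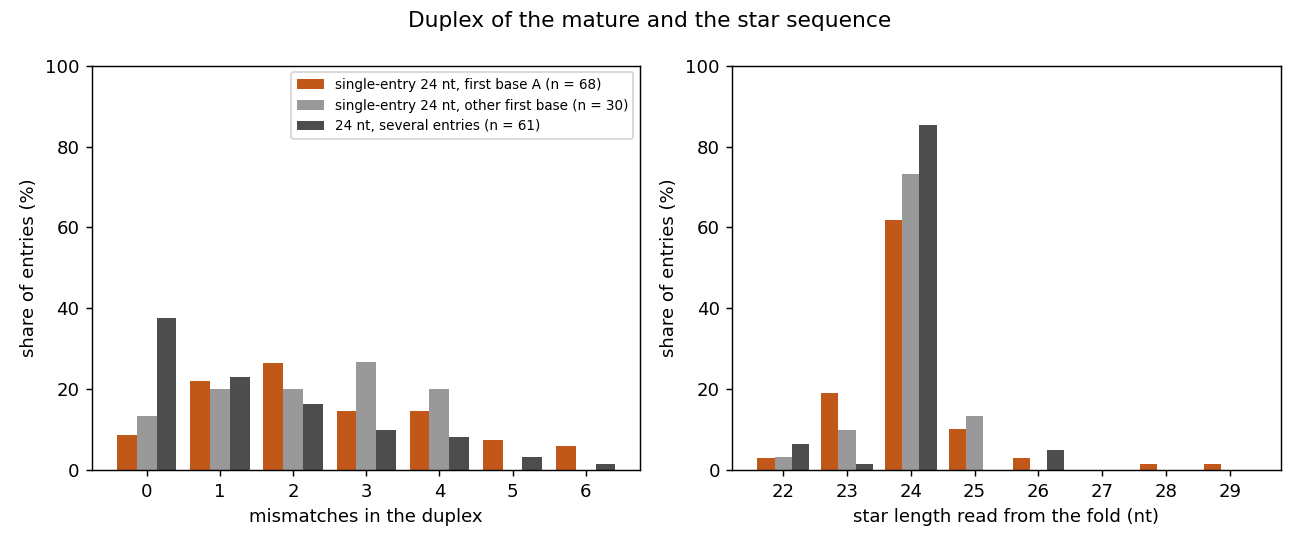
Left, mismatches in the duplex, and right, length of the star sequence in nt, as percent of entries, for the 68 members, 30 single-entry 24 nt entries with another first base and 61 entries of 24 nt sequences in several entries. Members have a tail of 5 and 6 mismatches, which a few entries of 24 nt sequences in several entries also reach. Star sequences of 24 nt make up 61.8% in the members.

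Past the fixed first A, the members were rich in A and T. In bases 2 to 24, A made up 29.9%, T 30.2%, G 22.6% and C 17.3%. The single-entry 24 nt sequences with another first base had 31.0% A, 31.9% T, 21.6% G and 15.5% C, and sequences of other lengths had 24.4% C. The median G+C of bases 2 to 24 was 39.1% in the members (range 21.7 to 65.2%), equal to the 39.1% of single-entry 24 nt sequences with another first base, and 34.8% in repeated 24 nt sequences and 47.4% in other lengths. Whole precursors had a median G+C of 33.2%, against 31.8% for the single-entry 24 nt sequences with another first base, 34.3% for repeated 24 nt entries and 41.0% for other lengths. Star sequences held 39.0% T in the members, against 32.2% in the rest of the list, which is mostly entries of other lengths. The share was 33.5% in single-entry 24 nt sequences with another first base and 37.9% in repeated 24 nt sequences. The fixed first A was paired in 49 of 68 members, and its partner is a T. Part of the star T of the members therefore follows from their choice, and the share without these partners was not computed. T was also the most frequent first base of the members' star sequences (28 of 68). It was so too in single-entry 24 nt sequences with another first base (15 of 30) and in repeated 24 nt entries (27 of 61).

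A pair of members with the lowest and the pair with the highest G+C are printed with bases 2 to 8 in capitals, because they mark the range of composition.
PotatoMir1001239442: aCAAATAAtctagttcataatgat
PotatoMir1002078640: aGGATTGTattgatgattaaaatt
PotatoMir1001488903: aCGACCCGtagaactgcccacgac
PotatoMir1001480909: aCGAACCGtagatcccatccgtgg
The first pair had 21.7% G+C, or 5 of 23 bases, tied with PotatoMir1002836410 (28 reads), which comes later in the alphabet. PotatoMir1002078640 had 4 reads and lay at 11584 to 11607 on the plus strand of PGSC0003DMB000001020. PotatoMir1001488903 had 65.2%, or 15 of 23 bases, and PotatoMir1001480909, with 9 reads at 156204 to 156227 on the plus strand of PGSC0003DMB000000013, had 60.9%, or 14 of 23 bases.

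Along the sequence, the base shares were uneven at a few positions, which were picked after all positions had been seen. The last base was T in 34 of 68 members (50%, 38.4 to 61.6%), C in 18, A in 8 and G in 8, and T was also the last base of 18 of 30 single-entry sequences with another first base. Position 20 was A in 33 of 68 members (48.5%, 37.1 to 60.2%), against 9 of 30 sequences with another first base (16.7 to 47.9%). Position 10 was C in 3 of 68 members, against 3 of 30. Position 18 was A in 10 of 68 members (8.19 to 25%), against 9 of 30 (16.7 to 47.9%). All of these intervals overlap. The second base was T in 26 members, C in 16, A in 13 and G in 13. Among all 121 distinct 24 nt sequences of the list, 81 began with A (66.9%), against 14 of 59 sequences of 21 nt, and 13 of the 23 repeated 24 nt sequences began with A.

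**Figure D5:**
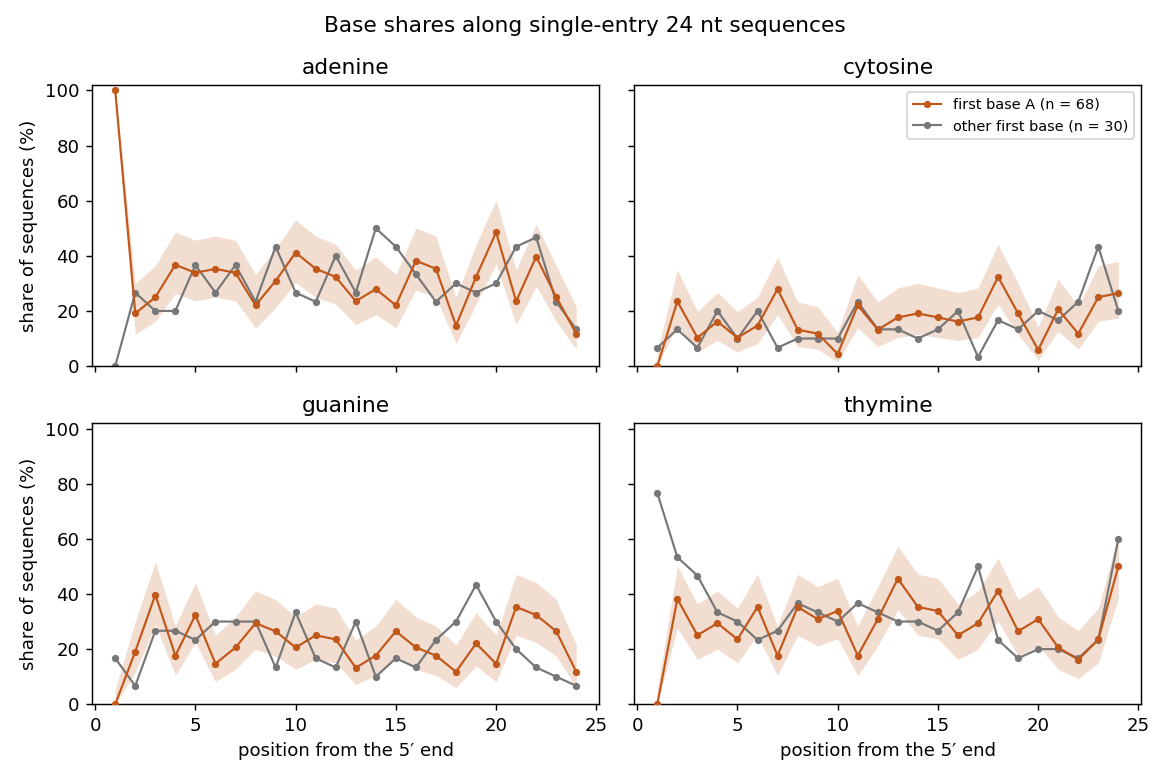
Share of each base, in percent, at positions 1 to 24 from the 5′ end in the 68 members (orange, with Wilson 95% intervals as a band) and the 30 single-entry 24 nt sequences with another first base (grey). Position 1 was fixed to A by the choice of the members, and the last position is T in 50% of them.

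No member was overlapped by an entry on the opposite strand (0 of 68). In the list, 17 of 324 entries were overlapped in this way, 13 of 24 nt sequences in several entries and 4 of other lengths. In all 17 the entry on the other strand had the same mature sequence, and such a sequence stands in more than 1 entry, so the choice of single-entry sequences removed them. No member was overlapped on its own strand either, against 5 of 324 entries of the list.

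Most members were the only member on their superscaffold. This was counted for the members only, so whether they lie farther apart than other entries is not shown. The members lay on 58 of the 197 superscaffolds of the list, with 1 member on 49 of them, 2 on 8 and 3 on 1. No pair of members lay within 10000 nt. The nearest, PotatoMir1002870907 and PotatoMir1002136361 on PGSC0003DMB000000651, were 22111 nt apart, and only PotatoMir1000876644 lay within 10000 nt of any other entry, at 2278 nt.

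Among the members, seeds were mostly private to 1 member, and the other sets were not counted in this way. The 68 members had 61 distinct seeds, and 13 members fell into 6 groups with a shared seed. The 4 groups printed, with the seed in capitals, are the largest and the first of the pairs.
PotatoMir1001522481: aCGGACCGtagatcaatccacagt
PotatoMir1001522651: aCGGACCGtggatcgaatgaaggt
PotatoMir1001522652: aCGGACCGtggatcgaatgacagt
PotatoMir1001239380: aCAAATAAgtccattacctgaacc
PotatoMir1001239442: aCAAATAAtctagttcataatgat
PotatoMir1002079072: aGGATTGTgactttttcaaagagt
PotatoMir1002078640: aGGATTGTattgatgattaaaatt
PotatoMir1002132803: aGGGTTGTgacttttctgaagagt
PotatoMir1002132736: aGGGTTGTgactttaatgaaaagt
The group of 3 with cggaccg had 12 reads in all and differed by 2 to 7 mismatches over the whole sequence. The pair with caaataa had 13 reads and 14 mismatches, and that with ggattgt had 93 reads and 11 mismatches, so past the seed these pairs are unlike. The pair with gggttgt had 29 reads and 3 mismatches. Its seed also occurs outside the members, in PotatoMir1002132729, a 24 nt sequence in several entries with 9 reads.

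A distinct sequence of the list within 2 mismatches was found for 6 of 68 members. This was counted for the members only, so whether it is few or many against the other sets is not shown. PotatoMir1000971035 (13 reads, 893702 to 893725 on the plus strand of PGSC0003DMB000000072) and PotatoMir1000503124 (7 reads, 671118 to 671141 on the minus strand of PGSC0003DMB000000272) differed at 1 base. The first was also within 1 mismatch, and the second within 2, of PotatoMir1002618508, a 24 nt sequence with 6 reads in 2 entries. PotatoMir1001522651 and PotatoMir1001522652, with 3 reads each, differed at 2 bases and lay on different superscaffolds.

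Shorter shared words joined more members. Words of at least 12 nt, in either sense, were shared with another sequence of the list by 22 of 68 members (32.4%, 22.4 to 44.2%), against 11 of 30, 8 of 23 and 31 of 101 distinct sequences in the other sets. Among themselves, 15 members formed 5 such groups. The sets printed were chosen after their values were seen, to show a word that recurs at different positions, with the word common to the whole set in capitals. The largest set had 5 members and 170 reads. Its members are joined as a chain, since not every pair shares a word of 12 nt, and the word common to all 5 has only 7 nt.
PotatoMir1000713200: aagagTTGTGACtttttcaaaggg
PotatoMir1001696104: acttttctgaagggTTGTGACctt
PotatoMir1002079072: aggaTTGTGACtttttcaaagagt
PotatoMir1002132736: agggTTGTGACtttaatgaaaagt
PotatoMir1002132803: agggTTGTGACttttctgaagagt
In this set the precursors ranged from 49 to 146 nt, and 3 members lay on the 3′ arm and 2 on the 5′ arm. The second set had 3 members and 77 reads and shared a word of 12 nt that begins at position 5, 11 or 1.
PotatoMir1000018741: aaaaAAGCGACGGACAgcgtctct
PotatoMir1000213714: aaacccagaaAAGCGACGGACAgt
PotatoMir1000747591: AAGCGACGGACAacatctcttagt
The third set had 3 members and 25 reads, with a word of 14 nt that 1 member carries as its reverse complement.
PotatoMir1000503124: aacATTTTTGAAGAGTCtgagcaa
PotatoMir1000971035: aatATTTTTGAAGAGTCtgagcaa
PotatoMir1002606682: atattgctcgGACTCTTCAAAAAT
The first pair of this set lies on the 3′ arm and PotatoMir1002606682 on the 5′ arm, on another superscaffold from PotatoMir1000503124 and 627056 nt from PotatoMir1000971035. The remaining sets were pairs, and no member was identical to the star sequence of any entry. Runs shared with sequences outside the members reached 23 nt, between PotatoMir1000971035 and PotatoMir1002618508. PotatoMir1003398604 (43 reads) shared 22 nt with PotatoMir1006226006, a single-entry 24 nt sequence with another first base and 25 reads, and PotatoMir1000503124 shared 21 nt with PotatoMir1002618508. Runs of 20 nt joined PotatoMir1002958837 (96 reads) to PotatoMir1005220602, a single-entry 24 nt sequence with another first base and 8 reads, and PotatoMir1000213714 (10 reads) to PotatoMir1003317851, a repeated 24 nt sequence with 50 reads. The pairs with PotatoMir1006226006, PotatoMir1005220602 and PotatoMir1003317851 were also chosen after their values were seen.

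Precursors, which contain the mature sequences and can share longer runs by their length alone, were also compared with one another. A run of at least 15 nt, in either sense, joined 23 of 68 precursors in 9 groups. This was counted for the members only, so no share of another set stands beside it. After PotatoMir1002699934 and PotatoMir1001503542, the longest runs were 38 nt (PotatoMir1002958837 and PotatoMir1000387571), 37 nt (PotatoMir1003011238 and PotatoMir1003003528) and 35 nt (PotatoMir1001522651 and PotatoMir1001522652). PotatoMir1003011238 and PotatoMir1003003528, chosen after their values were seen, are both on the 5′ arm of precursors over 200 nt, with 108 and 68 reads. Their mature sequences are printed with bases 2 to 8 in capitals, because the mature strands of this pair differ more than the star strands.
PotatoMir1003011238: aTGTGGCActtttcggattttgag
PotatoMir1003003528: aTGTGACActttttgaatttcgag
The mature sequences differed at 4 bases and the star sequences at 1 base. PotatoMir1002494475 and PotatoMir1002493032, a second pair chosen in the same way, are both on the 3′ arm of precursors over 200 nt, with 214 and 16 reads.
PotatoMir1002494475: aTAGGACTttagtttagttaaggt
PotatoMir1002493032: aTAGGACCctagttaaatttaggt
Here the mature sequences differed at 5 bases, as did the star sequences, and their seeds differ in the last base.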

How the data were processed

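Small RNAs of 12 libraries were sequenced. Per the paper's methods, the authors trimmed reads with Cutadapt (version 1.1 per the submitters' processing notes), removed structural RNAs (rRNA, tRNA, snRNA and snoRNA) with cross_match, aligned reads without mismatches to the DM superscaffolds with Bowtie, excised windows, folded them with RNAfold and predicted miRNAs with miRDeep-P. Versions of the other tools are not given in the sources used here. The deposited list holds whole-number read counts without normalization, pooled over all libraries, which the authors wrote into the identifiers. It also holds entries under the study's minimum of 5 reads.

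Precursors were folded with ViennaRNA 2.7.2 at 37 °C. An unpaired base at the cut of the star sequence was replaced by the closest paired one, up to 5 nt away. The pooled list allows no comparison between libraries, and no test was made. Shares have Wilson, reads Poisson and medians order-statistic intervals (95%), which cover counting error only. The star and duplex script was tested on simulated data. Scripts ran under Python 3.11.15 with SciPy 1.17.1, NumPy 2.4.6 and Matplotlib 3.10.9.

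Members and lists were chosen with earlier results of these data known. Named members were those with the most and fewest reads and the extremes of precursor length, energy per nt and G+C, plus shared seeds (up to 4 groups) and near sequences (up to 4 pairs). Others are named as chosen after their values were seen. Alternatives were a minimum of 5 or 10 reads, leaving out near sequences, counting overlapping precursors once, other fold, pairing, arm, overlap and composition settings and, added after seeing the data, a required overhang.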

Additional observations from a re-analysis of the deposited data

How the results depend on the processing

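Of 44 alternatives to 9 results, run on the members only, 39 stayed within the interval of the value reported, or within 1.5 times for the count of members. Some of the 39 could not move, so this count overstates stability. No members overlap one another, so counting overlapping precursors once changed nothing. The opposite-strand count of 0 could only stay at 0, and the arm by pairing direction was fixed by the place of the mature sequence. The larger arm changed with a minimum of 5 reads, where the 3′ share was 52.9%. Requiring an overhang of 2 nt at the open end, added after seeing the data, gave a duplex share of 69.1%. With at least 10 reads required, 41 members were left and their median was 29 reads, by construction. Folding at 20 °C gave a median energy of -0.541 kcal/mol per nt. Counting G:U pairs as mismatches lowered the share that met the duplex criteria to 41.2%. G+C over the whole precursor had a median of 33.2%. The duplex share was 80.9% with the fold at 20 °C and 70.7% at a minimum of 10 reads. No paired analysis was possible because the list pools all libraries and carries no replicate numbers, and for the same reason no replicate could be left out. Depth limits the order of members with few reads, since 17 had fewer than 5.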
